A study of Mus musculus with 9 samples.

Results

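The 9 genes Apod, Mgp, Dcn, Sparcl1, Gsn, Pdgfra, Pdgfrb, Thy1 and Cd248 are markers of stromal cells, the fibroblasts and vessel-wall cells that surround an epithelium. They were found by symbol among the 13336 genes of the deposited table, and each matched 1 row. They had been picked by name because earlier results of these same libraries showed them higher where Lef1 was forced on. Their difference between the groups is therefore the value that chose them, and it is given below as a description without a p-value.

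The study grew gland cells from the mouse trachea, each library being 1 pool of 3 to 5 mice treated with tamoxifen on 5 days before harvest. All mice carried ACTA2-CreERT2, a tamoxifen-inducible Cre under the promoter of a smooth muscle actin gene. The 5 Lef1KI libraries came from mice with Lef-1KI+/+, a knock-in of the Wnt effector gene Lef1, and were sorted as GFP-. The 4 WT libraries came from mice with ROSA-TG, a lineage reporter, and were sorted as GFP+. In every library the gate and the genotype changed together, so their parts in any difference cannot be told apart. Both groups were grown to passage 1 with Y-27632 at 10 µM and with DMH-1 (blocks BMP receptors), A83-01 (blocks TGF-beta receptors) and CHIR 99021 (activates Wnt signalling) at 1 µM each. The labels give no age and no genetic background. Libraries are called by the letters of the deposited columns, A to E for Lef1KI and A, B, E and D for WT, which no label ties to a replicate number, so equal letters do not pair libraries.

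Fibroblasts make the fibrous matrix of connective tissue. They secrete collagens with small proteoglycans and calcium-binding glycoproteins, and they respond to platelet-derived growth factors through the receptor kinases that Pdgfra and Pdgfrb encode. Pericytes, the support cells of small vessels, share Pdgfrb and Cd248 with them. Myoepithelial cells, by contrast, are contractile epithelial cells of glands that express basal keratins and smooth muscle actin. None of the 9 genes belongs to that epithelial programme by its textbook use as a marker, although Gsn is expressed by many cell types.

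Levels are given as TPM, a share of all transcripts corrected for their length, so levels of different genes can be compared. A difference is the mean of log2(TPM + 1) in Lef1KI less that in WT, a scale that makes fold changes of very low genes look smaller. Library medians ran from 3.58 to 3.97 on that scale, with 11465 to 12135 genes at 1 TPM or more. The cells were labelled myoepithelial, and epithelial and basal cell markers were present, since all 12 such genes looked up were measured. Their summed level was between 24870 and 26750 TPM in Lef1KI and between 20410 and 27020 TPM in WT. That list holds general epithelial genes, so it does not by itself show myoepithelial identity, and contractile markers are given further below. Krt5 and Krt14, basal keratins, had means of 8586 ± 829.4 and 7217 ± 457 TPM in Lef1KI (SD, n = 5) and of 7008 ± 2442 and 6258 ± 362 TPM in WT (SD, n = 4). Trp63, the basal cell transcription factor, had 108 ± 14.9 and 117 ± 7.51 TPM. Acta2, the smooth muscle actin gene of contractile cells, averaged 62.3 ± 31.2 TPM in Lef1KI against 129 ± 41.0 TPM in WT and did not pass limma (adjusted p 0.0834). Lef1 had 210, 312, 309, 139 and 166 TPM in Lef1KI A to E and 0.55, 0.46, 0.40 and 0.38 TPM in WT A, B, E and D.

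All 9 stromal marker genes had a higher mean in Lef1KI, and for all 9 every Lef1KI library was above every WT library. Of all genes measured, 10.0% were placed so and 1.89% the opposite way, 11.9% together. limma called 7.97% of genes changed at an adjusted p under 0.05, with 898 (6.73%) higher and 165 (1.24%) lower. That split depended on scaling, with 605 higher and 332 lower after median centring and 610 and 292 after trimmed-mean scaling. Since the genes were chosen on this contrast, nothing is read from their count. The differences ranged from 0.67 for Gsn to 4.33 for Apod, with a median of 2.08, where all 13336 genes had a median of 0.14. Together the 9 genes made up 0.365 ± 0.132% of all TPM in Lef1KI (SD, n = 5) and 0.102 ± 0.0301% in WT (SD, n = 4). In bulk RNA, fewer cells of a type and less RNA per cell cannot be told apart.

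**Figure D1:**
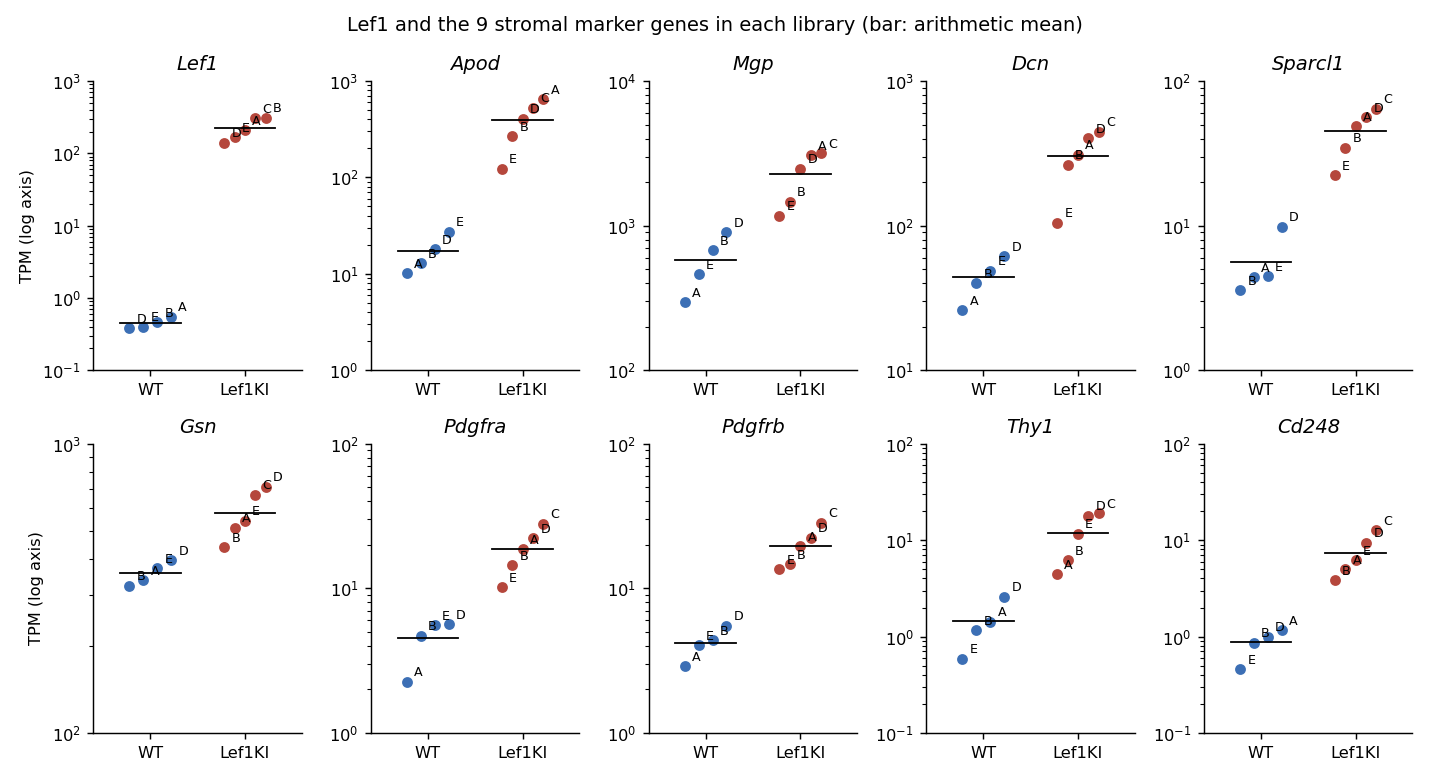
TPM on a log axis for Lef1 and the 9 stromal marker genes, 1 point per library with its letter, 4 WT libraries in blue and 5 Lef1KI libraries in red, with the arithmetic mean as a bar. In each of the 10 panels the red points are all above the blue points, with the narrowest gap for Gsn and the widest among the 9 markers for Apod.

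Among the secreted proteins of the matrix, Mgp was the most abundant. This gene (ENSMUSG00000030218, chromosome 6 from 136872435 to 136875823, minus strand) encodes matrix Gla protein, a small vitamin K-dependent inhibitor of calcification that cartilage, vessel walls and fibroblasts secrete. It had 3055, 1459, 3161, 2469 and 1168 TPM in Lef1KI A to E and 296, 676, 462 and 898 TPM in WT A, B, E and D. The lowest Lef1KI library, E, was 1.30 times the highest WT library, D, so the groups came close without overlapping. The means were 2263 ± 911 TPM (SD, n = 5) and 583 ± 261 TPM (SD, n = 4), a log2 difference of 1.97 ± 0.37 (SE). Mgp was also far from absent in WT, where its mean ranked 226 among the 13336 genes, against 85 in Lef1KI.

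Dcn (ENSMUSG00000019929, chromosome 10 from 97479609 to 97518143, plus strand) encodes decorin, a small leucine-rich proteoglycan that binds collagen fibrils. It had 309, 263, 446, 402 and 105 TPM in Lef1KI A to E and 26.0, 39.9, 48.7 and 61.4 TPM in WT A, B, E and D. Lef1KI E stood well below the other Lef1KI libraries but still at 1.71 times WT D, the highest WT library. The log2 difference was 2.68 ± 0.39 (SE), from a mean of 44.0 ± 14.9 TPM (SD, n = 4) to one of 305 ± 133 TPM (SD, n = 5).

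Sparcl1 (ENSMUSG00000029309, chromosome 5 from 104079111 to 104113733, minus strand) encodes a matricellular glycoprotein related to SPARC, which fibroblasts and vessel-wall cells make. Its levels were 48.5, 34.5, 64.4, 56.4 and 22.3 TPM in Lef1KI A to E, and 4.38, 3.56, 4.47 and 9.84 TPM in WT A, B, E and D. WT D was more than the sum of any pair of the other WT libraries, and Lef1KI E, the lowest of its group, was 2.27 times that value. The log2 difference was 2.81 ± 0.33 (SE).

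Apod (ENSMUSG00000022548, chromosome 16 from 31296192 to 31314808, minus strand) encodes apolipoprotein D, a secreted lipocalin that carries lipids and is made by fibroblasts and by glial and perineurial cells of nerves. It had 646, 267, 527, 407 and 124 TPM in Lef1KI A to E and 10.1, 12.9, 27.5 and 17.9 TPM in WT A, B, E and D. Its groups were the farthest apart of the 9 genes: Lef1KI E, the lowest of its group, was 4.50 times WT E, the highest of the other. The mean was 394 ± 207 TPM (SD, n = 5) against 17.1 ± 7.64 TPM (SD, n = 4), a ratio of 23.1 and a log2 difference of 4.33 ± 0.45 (SE). It was also the most uneven of the 9 within Lef1KI, with a highest library at 5.23 times the lowest.

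Gsn (ENSMUSG00000026879, chromosome 2 from 35256380 to 35307892, plus strand) encodes gelsolin, which severs and caps actin filaments and exists as a cytoplasmic and a secreted form that the gene-level values do not separate. It had 513, 438, 667, 709 and 542 TPM in Lef1KI A to E and 338, 323, 371 and 396 TPM in WT A, B, E and D. Gsn was the gene with the least contrast, since Lef1KI B was 1.11 times WT D. It was already the second most abundant of the 9 in WT after Mgp, at 357 ± 32.8 TPM (SD, n = 4), and it reached 574 ± 112 TPM in Lef1KI (SD, n = 5). The log2 difference was 0.67 ± 0.15 (SE), and with each library centred on its median it was 0.51, since centring lowers every difference by the same 0.16.

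Both receptors of platelet-derived growth factors were at moderate levels. Pdgfra (ENSMUSG00000029231, chromosome 5 from 75152292 to 75198215, plus strand) marks fibroblasts of most organs. It had 18.7, 14.4, 28.0, 22.2 and 10.2 TPM in Lef1KI A to E and 2.26, 4.69, 5.55 and 5.65 TPM in WT A, B, E and D. WT A was low within its group, and Lef1KI E, the lowest Lef1KI library, was 1.80 times WT D. The log2 difference was 1.81 ± 0.30 (SE). Pdgfrb (ENSMUSG00000024620, chromosome 18 from 61045150 to 61085061, plus strand) marks pericytes as well as fibroblasts. It had 19.6, 14.7, 28.5, 22.4 and 13.6 TPM in Lef1KI A to E and 2.90, 4.36, 4.03 and 5.51 TPM in WT A, B, E and D. Again Lef1KI E was the lowest and WT D the highest of their groups, at a ratio of 2.47, and the log2 difference was 1.97 ± 0.23 (SE). The ratio of Pdgfra to Pdgfrb was 0.957, 0.981, 0.981, 0.991 and 0.749 in Lef1KI A to E and 0.779, 1.08, 1.38 and 1.03 in WT A, B, E and D, and these ratios overlapped between the groups. Pdgfra was below Pdgfrb in every Lef1KI library and in WT A, and above it in WT B, E and D. The levels of the pair were close in Lef1KI A to D and in WT B and D.

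Surface glycoproteins were the least abundant. Thy1 (ENSMUSG00000032011, chromosome 9 from 44043384 to 44048579, plus strand) encodes a small lipid-anchored protein of fibroblasts, neurons and mouse T cells. It had 4.43, 6.20, 19.1, 17.9 and 11.6 TPM in Lef1KI A to E and 1.43, 1.16, 0.59 and 2.58 TPM in WT A, B, E and D. Its low Lef1KI library was A, in which Apod and Mgp were above their group means, and A was 1.72 times WT D. Cd248 (ENSMUSG00000056481, chromosome 19 from 5068078 to 5070682, plus strand) encodes endosialin, a C-type lectin-like protein of pericytes and fibroblasts. It had 5.01, 3.85, 12.6, 9.38 and 6.15 TPM in Lef1KI A to E and 1.16, 0.86, 0.46 and 1.00 TPM in WT A, B, E and D. Lef1KI B, the lowest of its group, was 3.32 times WT A. The log2 differences were 2.28 ± 0.40 (SE) for Thy1 and 2.08 ± 0.28 (SE) for Cd248, whose WT levels near 1 TPM make the log2(TPM + 1) scale compress both. With a pseudocount of 0.1 the difference of Cd248 was 2.88.

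In order of mean level in Lef1KI the genes ran Mgp, Gsn, Apod, Dcn, Sparcl1, Pdgfrb, Pdgfra, Thy1 and Cd248, and in WT Mgp, Gsn, Dcn, Apod, Sparcl1, Pdgfra, Pdgfrb, Thy1 and Cd248. In Lef1KI, Gsn and Apod, Apod and Dcn, Pdgfrb and Pdgfra, Pdgfra and Thy1, and Thy1 and Cd248 were neighbours whose means differed by less than the larger of their SDs. In WT this held for Mgp and Gsn, Sparcl1 and Pdgfra, Pdgfra and Pdgfrb, and Thy1 and Cd248. Mgp alone made up 61.3 ± 3.50% of the summed TPM of the 9 genes in Lef1KI (SD, n = 5) and 55.2 ± 10.2% in WT (SD, n = 4). Without Mgp the other 8 genes summed to 1376 ± 415 TPM in Lef1KI and 434 ± 55.9 TPM in WT.

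**Figure D2:**
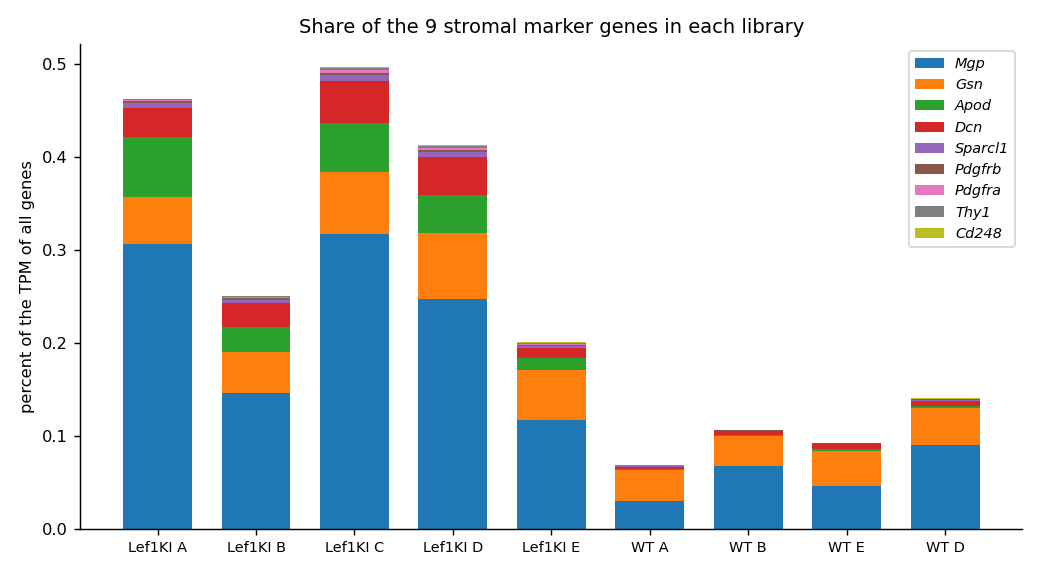
Stacked bars of the 9 stromal marker genes as a percent of the TPM of all genes, 1 bar per library. Lef1KI bars reach between 0.201% (E) and 0.497% (C) and WT bars between 0.0683% (A) and 0.140% (D), with Mgp the largest segment in all but WT A, where Gsn is larger.

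The promoter table of RefSeq (build GRCm38.p6) holds windows for 3 of the 9 genes, Apod, Pdgfra and Gsn. The 250 bases before a start site are printed for the gene with the largest difference, for a receptor and for the gene with the smallest difference. They are shown to compare the letters upstream of genes that were higher in the same group. Capitals mark every match, on both strands, to 6 of the 7 motifs searched. These were the TCF/LEF motif that Lef1 binds in the forms CTTTGAT and CTTTGAA. The TATA box was searched as TATAAA. The CCAAT box was searched as CCAAT. The GC box was searched as GGGCGG. The AP-1 motif was searched as TGANTCA. The E-box, searched as CANNTG, is left in lower case because 66.2% of windows hold it.
Apod, chr16:31314809-31315058, minus strand: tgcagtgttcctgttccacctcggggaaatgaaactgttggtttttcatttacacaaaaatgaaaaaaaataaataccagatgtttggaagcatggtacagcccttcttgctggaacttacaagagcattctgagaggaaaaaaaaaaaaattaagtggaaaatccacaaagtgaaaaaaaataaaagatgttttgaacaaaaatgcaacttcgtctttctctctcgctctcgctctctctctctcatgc
Pdgfra, chr5:75152001-75152250, plus strand: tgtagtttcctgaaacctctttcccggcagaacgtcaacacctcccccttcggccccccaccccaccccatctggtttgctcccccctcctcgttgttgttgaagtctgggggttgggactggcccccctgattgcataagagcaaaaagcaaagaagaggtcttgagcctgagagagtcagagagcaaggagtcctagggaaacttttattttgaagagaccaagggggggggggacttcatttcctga
Gsn, chr2:35282130-35282379, plus strand: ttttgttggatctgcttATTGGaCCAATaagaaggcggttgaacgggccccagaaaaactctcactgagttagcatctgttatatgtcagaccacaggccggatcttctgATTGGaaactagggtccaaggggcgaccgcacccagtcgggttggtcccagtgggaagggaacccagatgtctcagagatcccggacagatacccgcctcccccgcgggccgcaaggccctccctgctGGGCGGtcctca
Apod and Pdgfra hold 0 of the capitalised motifs and 1 E-box each, while this Gsn window holds 3 CCAAT boxes, 1 GC box and 2 E-boxes. The windows of the other two Gsn starts hold 2 capitalised motifs each, a pair of GC boxes in the first and a CCAAT box and a GC box in the next. TCF/LEF letters were in none of the 5 windows. Among 32817 windows of this length, 3.21% hold CTTTGAT, 4.46% CTTTGAA, 33.8% CCAAT, 32.7% GGGCGG, 12.4% TATAAA and 6.75% TGANTCA. Base composition differed too, with 36.4% G or C in the Apod window, 54.4% in that of Pdgfra and 57.6% in this Gsn window, against a median of 52.4%. These are matches of letters in a short window and say nothing of binding.

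Within Lef1KI the 9 genes did not vary alike. Lef1KI C had the highest value for 7 of the 9, with Apod highest in A and Gsn highest in D, and all 9 genes were above their group mean in both C and D. Lef1KI E had the lowest value for 6 of the 9, namely Apod, Mgp, Dcn, Sparcl1, Pdgfra and Pdgfrb. For the other genes the low library was B (Gsn and Cd248) or A (Thy1). Median deviation of the 9 genes from their group mean, in log2 units, was 0.08, −0.35, 0.63, 0.33 and −0.74 in Lef1KI A to E. The median deviation of all genes was between −0.11 and 0.09 in the same libraries.

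Lef1KI A and E separated the genes most. In A, Apod lay 0.92 above its group mean and Thy1 1.06 below it, and in E, Apod lay 1.46 below and Thy1 0.16 above. Apod and Thy1 were accordingly the least alike pair within groups, with a root mean square distance of 1.02 in log2 units over the 9 libraries after each gene was centred within each group. Pdgfra and Pdgfrb were the most alike pair, at 0.185, where the median distance of Pdgfra to all other genes was 0.484. Pdgfrb ranked 25 by closeness to Pdgfra. From the side of Pdgfrb, Pdgfra ranked 187, and the median distance to all other genes was 0.376. Dcn was nearest to Pdgfra (0.261), Mgp to Pdgfra (0.301), Apod to Dcn (0.369) and Sparcl1 to Pdgfrb (0.295). Thy1 was nearest to Cd248 (0.333), which ranked 34 among the 13335 other genes by closeness to Thy1, while Dcn ranked 12074. This likeness was not mutual, since Cd248 was nearest to Gsn (0.291, rank 250) and Thy1 ranked 789 by closeness to Cd248. Genes with little spread, such as Gsn, lie near many genes on this measure: its nearest member, Pdgfrb, ranked 4011. The distances describe 9 libraries and were not tested.

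**Figure D3:**
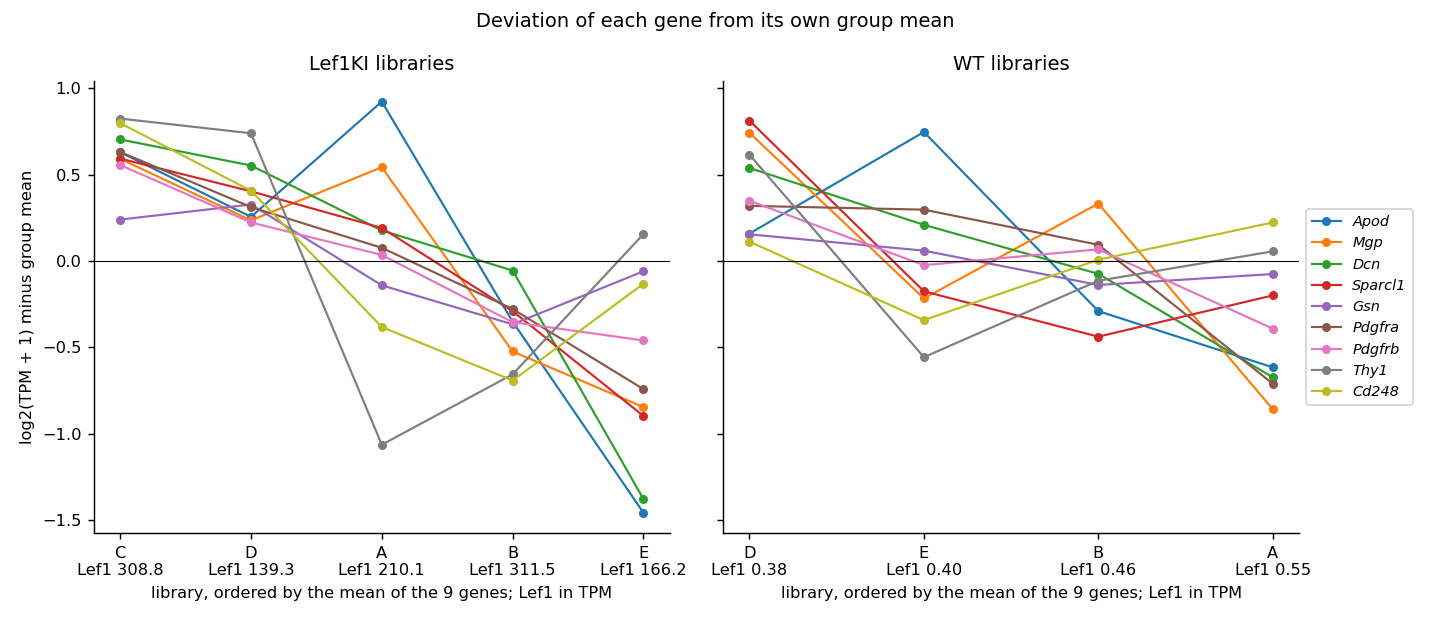
Log2(TPM + 1) of each of the 9 genes minus its group mean, 1 line per gene, in the 5 Lef1KI libraries (left) and the 4 WT libraries (right), ordered by the mean of the 9 genes, with the Lef1 level under each letter. Lines run from high in C and D to low in B and E on the left, except those of Thy1, Cd248 and Gsn, which are lower in A and B than in E. The line of Apod peaks in A, and that of Mgp is higher in A than in D. On the right all 9 start above 0 in WT D.

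WT libraries had their own order. All 9 genes were above their group mean in WT D, which had the highest value for 7 of them, and WT A had the lowest value for 5. Apod was highest in WT E and Cd248 in WT A. Median deviations were −0.39, −0.07, −0.02 and 0.35 in WT A, B, E and D. Summed TPM of the 9 genes was 682 in A, 1066 in B, 924 in E and 1398 in D. In Lef1KI it ran from 2002 in E to 4954 in C.

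The order of the Lef1KI libraries by Lef1 was not their order by the stromal genes. Lef1 was highest in B and C (312 and 309 TPM), then A (210), E (166) and D (139), while the mean log2 level of the 9 genes ran C (6.97), D (6.74), A (6.39), B (5.96) and E (5.71). Library D, with the least Lef1, had the second highest mean of the stromal genes, and B, with the most Lef1, the second lowest. Library C was near the top of both orders. With 5 libraries no correlation is given, and over all 9 libraries the groups form separate clusters in which Lef1 is near 0 or above 139 TPM, so a relation to the amount of Lef1 was not tested. In WT, Lef1 stayed at or under 0.55 TPM and its order (A, B, E, D) was the reverse of that of the stromal mean (D 4.49, E 4.06, B 4.002, A 3.70). These Lef1 levels lay close together and near 0, and B and E had nearly equal stromal means, so nothing is read from that order.

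**Figure D4:**
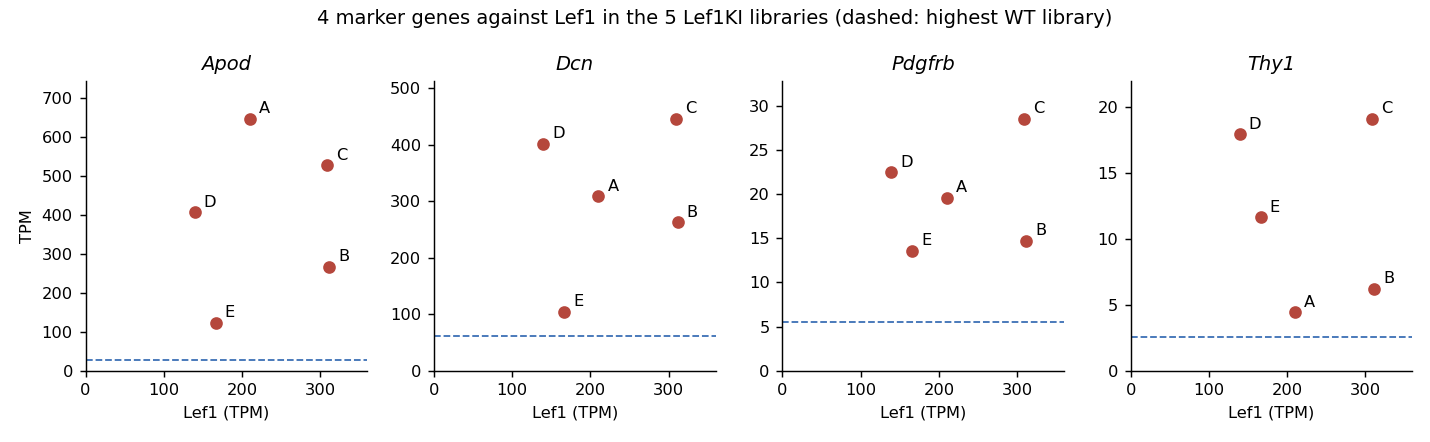
TPM of Apod, Dcn, Pdgfrb and Thy1 against TPM of Lef1 in the 5 Lef1KI libraries, marked by letter, on linear axes, with the highest WT library of each gene as a dashed line. Libraries B and C have nearly the same Lef1 (312 and 309 TPM) and differ in each of the 4 genes, as in Thy1 at 6.20 and 19.1 TPM.

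Proportions were formed for some pairs of the genes. Ratios that differ between the groups restate the unequal differences that chose the genes, so they are given as a description. The ratio of Gsn to Dcn was 1.66, 1.66, 1.496, 1.77 and 5.18 in Lef1KI A to E and 13.0, 8.11, 7.61 and 6.44 in WT A, B, E and D, so the groups did not overlap and Lef1KI E lay closest to WT. The ratio of Apod to Dcn was 2.09, 1.01, 1.18, 1.01 and 1.18 in Lef1KI and 0.388, 0.323, 0.564 and 0.292 in WT, again without overlap. Mgp to Dcn (7.96 ± 2.43 in Lef1KI, SD, n = 5, and 13.1 ± 3.33 in WT, SD, n = 4) and Sparcl1 to Dcn (0.157 ± 0.0326 and 0.127 ± 0.0428) overlapped. So did the ratios of Pdgfra to Dcn, Thy1 to Cd248, Thy1 to Pdgfrb and Cd248 to Pdgfrb. Relative to Dcn, then, Apod was higher and Gsn lower in Lef1KI.

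The genes outside the 9 whose values over the 9 libraries were most like the mean profile of the 9 were largely fibroblast genes. By root mean square distance of centred log2 values, among 10839 genes at 1 TPM or more in each group, the nearest 10 were C1s1 (0.13, a complement protease), Mmp2 (0.146, a gelatinase), Col5a2 (0.156), Ism1 (0.159), Col1a2 (0.164), Col5a1 (0.178), Serpina3f (0.189), Ctsk (0.195, the collagen-degrading cathepsin K), Serpinf1 (0.199) and Bgn (0.202, biglycan). The median distance of the genes compared was 1.16. The 9 genes themselves lay between 0.186 (Pdgfrb) and 1.13 (Apod) from their mean profile, with Gsn at 0.852. That profile thus stood poorly for Apod and Gsn. C1s1 averaged 96.4 ± 37.7 TPM in Lef1KI against 17.7 ± 4.37 TPM in WT, in the library order C, D, A, B, E that Dcn, Sparcl1, Pdgfra and Pdgfrb also had. Mmp2 had 171 ± 70.9 and 33.1 ± 7.40 TPM in the same order. Of the 10 genes, 6 were on the list of other fibroblast markers described next. This likeness includes the difference between the groups that chose the 9 genes. Serpina3f belongs to a family of near-identical copies among which reads can be split.

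Other fibroblast markers were looked up by a list of 41 genes that leaves out the 9, of which 36 were measured. Of these, 23 rose and 1 fell at a limma adjusted p under 0.05, where 6.73% of all genes rose and 1.24% fell, and 12 did not pass. The list had a median log2 difference of 1.72 against 0.14 for all genes. Col6a3, a collagen VI chain, rose from 8.71 ± 2.64 to 73.1 ± 29.3 TPM (limma adjusted p 0.000378). Scara5, a ferritin receptor of adventitial fibroblasts, rose from 7.29 ± 1.55 to 46.3 ± 16.4 TPM (limma adjusted p 0.000534). Col1a1, the main fibrillar collagen chain, rose from 4.97 ± 1.22 to 40.4 ± 17.6 TPM (limma adjusted p 0.000628). Fbln1, a matrix glycoprotein gene, fell from 72.5 ± 3.64 to 50.3 ± 8.67 TPM (limma adjusted p 0.035), a call kept without Lef1KI A or B and lost without any of the other libraries, at differences between −0.61 and −0.44. Not every marker on the list was higher: Ly6a averaged 1893 ± 218 TPM in Lef1KI against 2102 ± 399 TPM in WT, Pdpn 198 ± 50.4 and 167 ± 18.7 TPM, and Osr1 11.5 ± 5.85 and 10.8 ± 3.82 TPM, and none of these passed. The number that passed was between 22 and 25 when single libraries were left out. The list's summed level, led by Ly6a, was between 2632 and 4205 TPM in Lef1KI and between 2284 and 3188 TPM in WT. Its median deviation within Lef1KI was −0.00, −0.41, 0.61, 0.18 and −0.49 in A to E, with C and D above and B and E below, as for the 9 genes.

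**Figure D5:**
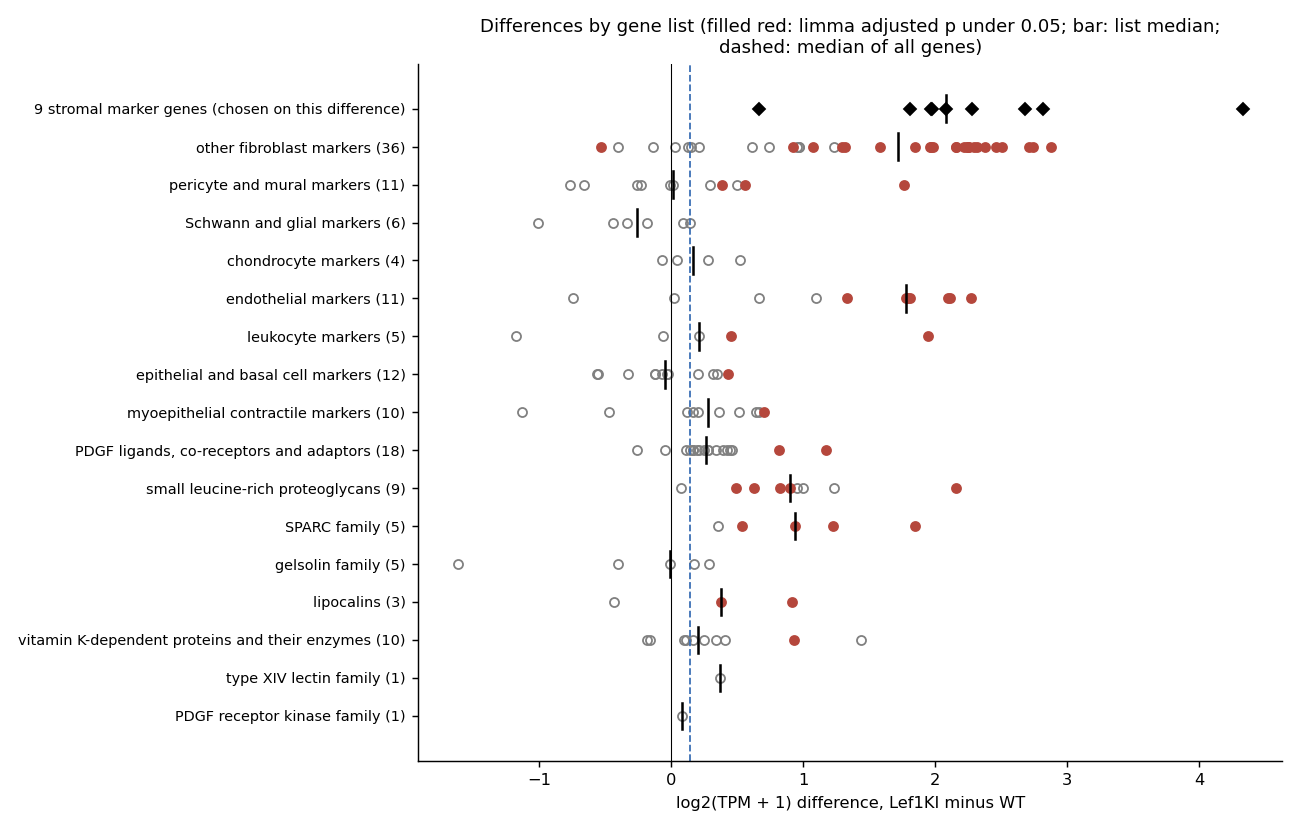
Log2(TPM + 1) differences, Lef1KI minus WT, for the 9 stromal marker genes (diamonds, not tested) and for each list of other genes (circles, filled red at a limma adjusted p under 0.05), with list medians as bars, the number of measured genes in brackets and the median of all genes dashed. The fibroblast and endothelial lists have medians of 1.72 and 1.77, and the pericyte, glial and epithelial lists lie around or below the dashed line at 0.14.

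Structural relatives of the 9 genes moved in part, where 6.73% of all genes rose. Among 9 measured small leucine-rich proteoglycans, the family of Dcn, 5 rose, among them Bgn (log2 difference 2.16, limma adjusted p 0.00161), Aspn (0.82, 0.00757) and Podn (0.90, 0.0106), with 3 passing under median centring or trimmed-mean scaling. The family's summed level was between 153 and 353 TPM in Lef1KI and between 53.5 and 101 TPM in WT. In the SPARC family, to which Sparcl1 belongs, 4 of 5 rose: Sparc itself (187 ± 31.2 to 357 ± 35.9 TPM, limma adjusted p 0.00161), Fstl1 (7.51 ± 1.26 to 30.4 ± 9.47 TPM, 0.000911), Smoc2 (1.22 ± 0.528 to 4.23 ± 1.49 TPM, 0.0132) and Smoc1, chosen after its value was seen (0.22 ± 0.177 to 0.768 ± 0.249 TPM, 0.0327).

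Relatives of Gsn, Apod, Mgp and Cd248 were looked up as well, again beside the 6.73% of all genes that rose. The single vitamin K call below is near that share. Of 5 gelsolin family genes 0 passed limma's threshold and 1 had an unadjusted p under 0.05. That gene, Scin, chosen after its value was seen, averaged 3.76 ± 1.25 TPM in Lef1KI against 18.2 ± 13.4 TPM in WT, and without WT A the family had 1 call. Of 3 lipocalins 2 rose, Lcn2 (742 ± 186 to 1417 ± 410 TPM, limma adjusted p 0.0463) and C8g (0.125 ± 0.048 to 0.468 ± 0.174 TPM, 0.0448). Neither was stable: Lcn2 was called only without Lef1KI E (1.101) or WT D (1.047), and C8g only without Lef1KI C (0.45), among the 9 fits that left out a library, and both calls were lost under median centring. Of 10 vitamin K-dependent proteins and their enzymes Pros1 rose (15.1 ± 1.75 to 30.6 ± 9.51 TPM, limma adjusted p 0.0232), a call lost without Lef1KI D (0.83) or without WT B (0.94), E (0.90) or D (0.88) and under median centring (0.77). The list had 2 calls without Lef1KI A, B or E. Ggcx and Vkorc1, which encode the carboxylase and the vitamin K reductase that Mgp needs, had 9.04 ± 1.49 and 57.0 ± 8.65 TPM in Lef1KI and 8.29 ± 1.22 and 63.4 ± 4.98 TPM in WT, and neither passed. For Cd248, 1 relative was measured, Thbd, which did not pass (25.2 ± 2.58 and 20.0 ± 5.98 TPM), so limma called 0, with 0 at an unadjusted p under 0.05.

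Signalling partners of the receptors came next. Of 18 measured genes for PDGF ligands, co-receptors and adaptors, 2 rose: Lrp1, an endocytic receptor that binds the PDGF receptor complex (29.1 ± 3.58 to 70.6 ± 28.7 TPM, limma adjusted p 0.0196), and Nrp1, a co-receptor (10.8 ± 2.998 to 19.6 ± 4.88 TPM, 0.0464). Over all genes 6.73% rose, and the list had a positive difference for 16 of 18 genes and a median of 0.26, against 0.14 for all genes. The call of Lrp1 was lost without WT A (1.08) or WT E (1.18). That of Nrp1 was kept only without Lef1KI A (0.87), Lef1KI E (0.87) or WT D (0.93). Pdgfa, the ligand gene with the highest level, averaged 38.1 ± 2.51 TPM in Lef1KI against 46.1 ± 6.28 TPM in WT, Pdgfb 1.42 ± 0.679 and 1.34 ± 0.992 TPM, and Pdgfc 3.56 ± 2.04 and 2.90 ± 0.593 TPM, and none of the 3 passed. Without WT A or WT E, 0 genes of the list passed, and 1 passed without Lef1KI B, C or D or without WT B. Kit, the measured relative of the receptor kinases, had 0.596 ± 0.257 and 0.53 ± 0.396 TPM, and limma called 0 genes of that family, with 0 at an unadjusted p under 0.05.

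Markers of other cell types that share some of the 9 genes were looked up beside them. Of 16 endothelial genes 11 were measured and 7 rose, among them Ramp2 (1.35 ± 0.593 to 9.08 ± 2.59 TPM, limma adjusted p 0.000765), Plvap (0.388 ± 0.223 to 2.53 ± 0.818 TPM, 0.00195) and Eng (3.56 ± 0.338 to 15.8 ± 7.35 TPM, 0.00398). Vwf, Cldn5, Tie1, Erg and Sox17 were not measured. Among all genes 6.73% rose. The defining genes Pecam1 and Cdh5 rose as well, from 0.48 ± 0.189 to 4.72 ± 2.83 TPM (limma adjusted p 0.00777) and from 0.885 ± 0.608 to 9.004 ± 5.53 TPM (0.00604). A filter of the authors kept genes that were steady in either group. Genes low in WT, such as Plvap and Cdh5, could thus be kept through Lef1KI, and the endothelial count carries this limit. Summed over the list, the endothelial level was 47.9, 50.1, 119, 136 and 93.8 TPM in Lef1KI A to E and between 23.6 and 33.9 TPM in WT. In these sums C, D and E were each above A and B. The levels of Thy1, Cd248 and Gsn were split the same way, with Cd248 in E (6.15 TPM) nearer to A than to D, while the other 6 stromal genes were lowest in E. That split was not particular to endothelial genes. It was also seen in the keratin genes Krt8 and Krt18, in the contractile gene Tagln and in the sum of the PDGF list. The part of endothelial transcripts in the values of Thy1, Cd248 and Gsn was not tested.

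Of 18 pericyte and mural genes 11 were measured and 3 rose: Steap4 (42.9 ± 1.49 to 153 ± 42.7 TPM, limma adjusted p 0.000765), Gucy1b1 (0.12 ± 0.109 to 0.656 ± 0.212 TPM, 0.0118) and Tbx18 (0.08 ± 0.0816 to 0.408 ± 0.113 TPM, 0.023), the last lost under median centring (0.22) and without Lef1KI C (0.37) or WT A (0.37), B (0.36) or E (0.36). Mcam averaged 41.4 ± 15.3 TPM in Lef1KI against 67.6 ± 10.9 TPM in WT (log2 difference −0.77) and Des 2.04 ± 0.691 against 4.08 ± 2.25 TPM (−0.66), and neither passed. The list's median difference was 0.01, below the 0.14 of all genes, of which 6.73% rose. Rgs5, a defining pericyte marker, was not measured, nor were Cspg4, Kcnj8, Abcc9, Higd1b, Vtn and Cnn1. Only 6 of the measured genes averaged 1 TPM or more in each group. The median describes the measured genes and says nothing of the missing ones. The list's summed level was between 150 and 305 TPM in Lef1KI and between 148 and 169 TPM in WT. Of 12 Schwann and glial genes 6 were measured and limma called 0, with 1 at an unadjusted p under 0.05, and their sum was between 40.1 and 73.3 TPM in Lef1KI and between 68.8 and 80.6 TPM in WT. A single Schwann and glial gene was called lower without Lef1KI A and without WT A. Of 15 chondrocyte genes 4 were measured and limma called 0, with 0 at an unadjusted p under 0.05; Col2a1, the cartilage collagen, had 1.34 ± 0.782 and 1.36 ± 0.291 TPM, and the sum was between 37.7 and 67.2 TPM in Lef1KI and between 21.7 and 46.5 TPM in WT. Apod and Mgp, which nerve-sheath cells and cartilage also make, thus stood beside glial and chondrocyte lists without a call in the fit over all 9 libraries.

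Of 13 leukocyte genes 5 were measured. Ptprc, the defining marker, was not among them, nor were Csf1r, Cd3e, Cd79a, Laptm5, Tyrobp, Fcer1g and Cd52. Lyz2 rose from 1.38 ± 1.16 to 7.96 ± 3.37 TPM (limma adjusted p 0.00731) and Coro1a from 0.13 ± 0.0956 to 0.544 ± 0.160 TPM (0.0198). Coro1a averaged under 1 TPM in both groups. Its call was lost without WT B (0.45) or WT E (0.39) and under median centring (0.289) and trimmed-mean scaling (0.305). Without Lef1KI A, 3 leukocyte genes were called higher and 1 lower. Cd68, the most abundant of the list, averaged 93.7 ± 82.1 TPM in Lef1KI against 180 ± 60.9 TPM in WT (log2 difference −1.18) and did not pass. The summed leukocyte level was between 58.6 and 245 TPM in Lef1KI and between 111 and 260 TPM in WT. Of the 12 epithelial and basal cell genes Cdh1 alone rose (270.2 ± 12.5 to 363 ± 20.02 TPM, limma adjusted p 0.012, lost without WT B at 0.39 and under median centring at 0.27). Since 6.73% of all genes rose, the single epithelial call and the single contractile call below are near that share, and nothing is read from them. Of 10 myoepithelial contractile genes Mylk alone passed, higher in Lef1KI (1.16 ± 0.411 to 2.55 ± 0.747 TPM, limma adjusted p 0.0448), a call kept only without Lef1KI E (0.83) or WT D (0.83), and Acta2 passed as lower without Lef1KI C (−1.36). The direction of the list's single call turned with the scaling: Mylk was lost under median centring (0.55) and trimmed-mean scaling (0.56), and under each of them 1 gene of the list was called lower, as was 1 without WT A. The contractile list had 2 calls without Lef1KI A and 0 without Lef1KI B or D or WT B or E. The contractile sum was between 472 and 1085 TPM in Lef1KI and between 549 and 903 TPM in WT. The part of any of these cell types in the levels of the 9 stromal genes was not tested.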

How the data were processed

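Libraries were stranded TruSeq mRNA preparations, per the labels' protocols. The authors deposited log2(TPM + 1) values made with RSEM on mm10, per the submitters' processing notes. The aligner, annotation, strand setting and RSEM version were not given in the sources used here. Values were tested against it: 100.0% of values under 50 TPM were whole hundredths (tolerance 0.01 of a hundredth), and each library held between 99.6% and 99.84% of its full TPM total. The lowest ratio of mean to SD in the better group was 3.002, so genes with a large spread in both groups had been filtered out. A low gene could thus be kept through the group in which it was high. Calls of low genes such as Gucy1b1 and Tbx18, whose WT SDs were close to their WT means, carry this limit. The same holds for Coro1a and for endothelial genes low in WT, such as Plvap and Cdh5. Listed genes that were not measured may have been filtered out. TPM keeps no depth, so the spread between libraries is the only error. No library pair shared more than 92 equal values.

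The comparison of Lef1KI with WT used limma 3.58.1 under R 4.3.3 (intensity trend, group as the only term, two-sided, Benjamini-Hochberg over 13336 genes, threshold 0.05), tested on simulated data first. The 9 genes, the lists, the naming rule and the tests were chosen with earlier results of these data known. The rule names the 9 genes, Lef1, up to 3 genes per list and direction with the smallest adjusted p, defining markers of each cell type and the 10 genes nearest the mean profile. Alternatives were median centring, trimmed-mean scaling, a pseudocount of 0.1, a filter at 1 TPM, no intensity trend and leaving out each library. Listed genes were matched by symbol or gene ID; positions are from GENCODE M21 on mm10. Annotated genes overlap Sparcl1, Pdgfra and Gsn, and reads shared with them cannot be told apart. Each library is 1 pool of mice, so p-values measure the spread between pools.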

Additional observations from a re-analysis of the deposited data

Results flagged for a closer look

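In 3 of the 104 groups of libraries examined (51 named genes and the sum of the 9 markers, each in both groups), 1 library lay far from the others by Dixon's ratio of gap to range on log2 values, where chance flags about 1 in 20. None of the 3 was one of the 9 stromal marker genes. Sparc had 234 TPM in WT B and between 170 and 175 TPM in the other WT libraries. Plvap, the endothelial gene, had 0.72 TPM in WT A and between 0.25 and 0.31 TPM in the others. Col6a3 had 12.7 TPM in WT D, the WT library in which all 9 stromal marker genes were above their group mean, and between 7.21 and 7.62 TPM in the others.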

How the results depend on the processing

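For the 9 stromal marker genes, every difference stayed positive and the groups of all 9 stayed apart under median centring and trimmed-mean scaling. Both also held with a pseudocount of 0.1 and in each of the 9 fits without 1 library, where no other outcome was possible. Groups that do not overlap stay apart when a library is left out or the pseudocount is changed. Their median difference of 2.08 was between 1.88 and 2.25 without single libraries, 1.92 after median centring and 2.70 with the pseudocount of 0.1. The median of all genes moved from 0.14 to −0.02 with median centring. The number of genes changed, 1063, was between 628 (without WT E) and 1686 (without Lef1KI A) without single libraries, and 643 without WT B. Median centring and trimmed-mean scaling each left 1 leukocyte, 0 epithelial and basal cell, 1 PDGF, 3 proteoglycan, 0 lipocalin and 0 vitamin K genes past the threshold. The pseudocount of 0.1 gave 2 vitamin K genes. The filter at 1 TPM gave 1 pericyte and mural, 1 leukocyte, 0 contractile, 1 lipocalin and 2 vitamin K genes, and the fit with no intensity trend gave 0 lipocalins. Without single libraries the counts were 0 to 1 for Schwann and glial genes, 1 to 4 for leukocyte genes, 0 to 1 for epithelial and basal cell genes, 0 to 2 for contractile genes, 0 to 3 for PDGF genes, 0 to 1 for gelsolins, 0 to 1 for lipocalins and 0 to 2 for vitamin K genes. The single contractile call was higher as reported and lower under both scalings. The cause of these shifts was not tested. Counts for the fibroblast, endothelial, chondrocyte and SPARC lists stayed within 1.5 times the reported ones in every fit run. No paired analysis was possible because the deposited columns carry letters that no label ties to the replicate numbers. TPM keeps no depth, so the counting error of the low genes Thy1 and Cd248 is unknown.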
